A study of Mus musculus with 6 samples.

Results

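The 10 genes described here, Cspg5, Cntn1, Slc1a3, Nes, Sox2, Sox9, Fabp7, Vim, Cd44 and Prom1, are neural stem, astrocyte and glioma identity genes, chosen by symbol out of 55291 gene symbols in the deposited table. They were measured by bulk RNA-seq in subcutaneous tumours of the mouse glioma line CT2A. The KO group had 3 libraries, of Siglece KO mice, and the WT group 3; the labels give no age, time after implantation, treatment or strain. Their source entry reads brain, while their tissue entry and titles give the subcutaneous tumour. Siglece encodes Siglec-E, an inhibitory receptor of myeloid cells that binds sialic acid. Per the labels' protocols, 5000 to 20000 CT2A cells were taken per library and libraries were made by Smart-seq2, a full-length cDNA method. The labels name no sort or gate, and all tumours came from this 1 line. The members were picked with the KO and WT values of these libraries known, Cspg5, Cntn1 and Slc1a3 because they were low in KO, so their differences between the groups are given as a description and without p-values.

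Neural stem cells and radial glia build their cytoskeleton from the intermediate filament proteins nestin and vimentin, and keep their undifferentiated state through SOX transcription factors. As the lineage splits, SOX9 marks the astrocyte branch, while SOX10 with OLIG2 marks the oligodendrocyte branch. Gliomas reuse these programmes, and the same genes, together with the surface proteins CD44 and prominin-1, serve as markers of glioma cell state. Vim and Cd44 are also expressed by fibroblasts, vessel cells and leukocytes.

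Library totals ran from 24369359 to 40574093 counts. The targeted gene, Siglece, was counted 0, 8 and 0 times over the KO libraries (replicates 1 to 3), against 74, 99 and 64 times over the WT libraries (log2 fold change -4.66, SE 1.15, edgeR adjusted p = 0.0409). KO replicate 2 stood apart from the other KO libraries: its summed level of 12 macrophage markers was 3437 CPM, against 12151 and 14013 CPM in KO replicates 1 and 3, and 1530 to 2431 CPM in WT. The members' fold changes and the counts of genes past the threshold in each list are therefore given with and without it. CPM are counts relative to library size, scaled for composition (TMM). In bulk tumours fewer cells of a type and less RNA per cell cannot be told apart.

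In WT tumours the members ran from 0.0358 TPM for Prom1 to 2567 TPM for Vim, where TPM are counts divided by exon length and scaled to the same total in each library. Vim, a filament of mesenchymal cells and of immature glia, stood first (SD 285 TPM, n = 3), above 99.8% of the 18621 genes tested. Sox2, a transcription factor of neural stem cells, followed at 322 ± 103 TPM, and Nes, the nestin gene, at 157 ± 54.9 TPM. Cd44, the hyaluronan receptor, was at 134 ± 46.6 TPM, and its range in WT overlapped that of Nes. These 4 genes made up an upper tier whose lowest WT library, 84.5 TPM for Cd44, lay well above the highest value of the next gene, 17.2 TPM for Cspg5.

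The next 4 genes were expressed at a low level in WT. The TPM ranges of each neighbouring pair overlapped, while Cspg5, at 9.03 to 17.2 TPM, lay above Cntn1, at 3.60 to 6.59 TPM, without overlap. Cspg5, a chondroitin sulphate proteoglycan of neural cells also known as neuroglycan C, was at 13.4 ± 4.11 TPM. Slc1a3, the glutamate transporter GLAST of astrocytes and radial glia, was at 7.54 ± 2.84 TPM. Fabp7, the brain fatty acid binding protein of radial glia, was at 6.55 ± 2.40 TPM. Cntn1, a GPI-anchored adhesion molecule of neurons and glia, was at 4.61 ± 1.72 TPM. The 3 genes other than Cspg5 lay below the middle of the tested genes in WT: 41.8%, 39.2% and 33.5% of these had a lower mean TPM than Slc1a3, Fabp7 and Cntn1.

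Both remaining markers were scarcely detected in WT. Sox9 was at 0.385 ± 0.0157 TPM in WT, from 30, 16 and 15 counts. Prom1, which encodes prominin-1 (CD133), was counted 11, 0 and 10 times over KO replicates 1 to 3, against 1, 1 and 6 times over WT replicates 1 to 3. It missed the filter on low counts and was not tested, so 9 of the 10 members entered the fit. A count of 0 in KO replicate 2 allows up to 0.0855 CPM, for counting error only. The WT libraries thus held high Sox2, Nes and Vim, while the levels of Sox9 and Prom1 go against the name of identity gene for this line.

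**Figure D1:**
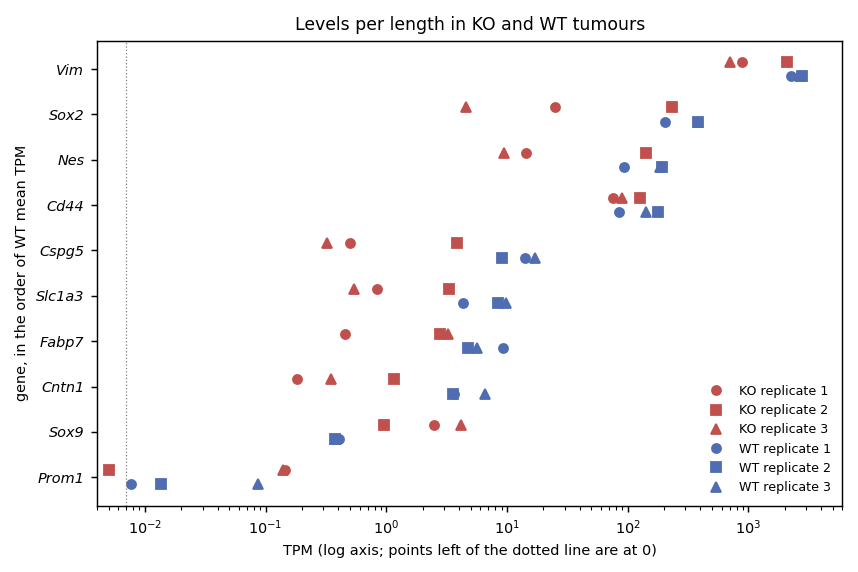
TPM of the 10 genes per library on a log axis, ordered by WT mean; red points are the KO libraries and blue points the WT libraries, with 1 marker shape per replicate. Vim, Sox2, Nes and Cd44 lie at 84.5 TPM or more in each WT library, Sox9 and Prom1 lie lowest in WT, Sox9 reaches 4.13 TPM in KO, and a point left of the dotted line is at 0.

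KO tumours held less of most members. Among the 9 tested genes, 6 had a lower CPM in all KO libraries than in any WT library (19.5% of all tested genes were), and 1 was higher in all (24.6%). edgeR across all 18621 genes put 3 members past an adjusted p of 0.05 as lower, Cspg5, Cntn1 and Slc1a3, where 0.226% of all genes were lower, and 1 as higher, Sox9, where 11.2% were. Since this contrast chose the members, nothing is read from these counts. Without KO replicate 2 they were 6 lower and 1 higher of 10 members tested, Prom1 included, where 18.5% and 22.7% of genes were called. Leaving out any other library, KO replicates 1 and 3 and each of the WT replicates in turn, put 0 members past the threshold in either direction. Without KO replicate 1 or any 1 WT library, 0 of all genes were past it, so that count is not particular to the members. Of 19432 genes tested without KO replicate 3, 943 were called higher and 6 lower. With DESeq2 4 members were lower and 1 higher, where 6.83% and 17.9% of all genes were, and with limma-voom 3 were lower and 0 higher, where 0.166% and 5.31% were. In TPM, which are not scaled for composition, the groups of Sox2 and Nes overlapped, because KO replicate 2 (231 TPM for Sox2, 141 TPM for Nes) stood above WT replicate 1 (203 TPM for Sox2, 93.8 TPM for Nes).

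Of the surface proteins, Cspg5 was at 1.80, 12.1 and 1.65 CPM in KO replicates 1, 2 and 3, against 69.8, 26.5 and 49.99 CPM in WT replicates 1, 2 and 3. The groups did not overlap, and WT replicate 2 was the lowest WT library. Its log2 fold change was -3.22 (SE 0.84), with means of 5.18 ± 5.99 CPM in KO and 48.7 ± 21.7 CPM in WT.

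Cntn1 had 0.612, 3.39 and 1.65 CPM in KO replicates 1, 2 and 3, against 16.9, 9.89 and 18.0 CPM in WT replicates 1, 2 and 3. KO replicate 2 was again the highest KO library and WT replicate 2 the lowest WT library, with a gap between the groups. The log2 fold change was -2.98 (SE 0.64). Of the other contactin genes, Cntn6 was at 0.238, 2.34 and 0.299 CPM in KO replicates 1, 2 and 3, against 3.74, 3.42 and 4.05 CPM in WT replicates 1, 2 and 3 (log2 fold change -1.94, SE 0.87, edgeR adjusted p = 0.168). Cntn3, Cntn4 and Cntn5 had 0 counts in each library.

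Slc1a3 had 2.59, 8.80 and 2.29 CPM in KO replicates 1, 2 and 3, against 18.3, 21.1 and 24.2 CPM in WT replicates 1, 2 and 3. The WT libraries lay close together, and KO replicate 2 fell between them and the other KO libraries. The log2 fold change was -2.21 (SE 0.56). In the same family Slc1a1, the transporter EAAC1, had a log2 fold change of -1.62 (SE 0.86, edgeR adjusted p = 0.222), and Slc1a4, a neutral amino acid transporter, of -1.31 (SE 0.65, adjusted p = 0.200). Slc1a5, the glutamine transporter ASCT2, was at 119, 151 and 110.3 CPM in KO replicates 1, 2 and 3, against 132, 137 and 121 CPM in WT replicates 1, 2 and 3. Slc1a2, the main glutamate transporter of mature astrocytes, did not exceed 0.272 CPM in any library.

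Of the stem cell genes, Nes had 33.3, 280.5 and 30.1 CPM in KO replicates 1, 2 and 3, against 296, 362 and 340 CPM in WT replicates 1, 2 and 3. KO replicate 2 almost reached the lowest WT library, while the log2 CPM of KO replicates 1 and 3 minus that mean in WT was -3.31 and -3.46. The log2 fold change was -1.54 (SE 0.83) with all libraries and -3.41 (SE 0.29) without KO replicate 2.

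Sox2 had 18.6, 147 and 4.74 CPM in KO replicates 1, 2 and 3, against 205, 228 and 227 CPM in WT replicates 1, 2 and 3. KO replicate 3 was the lowest library by far, and KO replicate 2 kept 67.0% of the WT mean. The log2 fold change was -1.95 (SE 1.03) with all libraries and -4.24 (SE 0.62) without KO replicate 2.

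Sox9, which directs glial and cartilage fate, ran the other way, with 3.71, 1.22 and 8.58 CPM in KO replicates 1, 2 and 3, against 0.820, 0.456 and 0.446 CPM in WT replicates 1, 2 and 3. The groups did not overlap, and the gene was highest in KO replicate 3, where Sox2 was lowest. Its log2 fold change was 2.96 (SE 0.77), and its mean level in KO was still only 2.53 ± 1.59 TPM. Fabp7 had 0.204, 1.08 and 2.04 CPM in KO replicates 1, 2 and 3, against 5.71, 1.74 and 2.02 CPM in WT replicates 1, 2 and 3. Here the groups overlapped in CPM, WT replicate 1 alone was high, and the log2 fold change was -1.52 (SE 0.86). In TPM the Fabp7 groups did not overlap. KO replicates 1, 2 and 3 had 0.453, 2.79 and 3.26 TPM, and WT replicates 1, 2 and 3 had 9.29, 4.78 and 5.60 TPM.

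**Figure D2:**
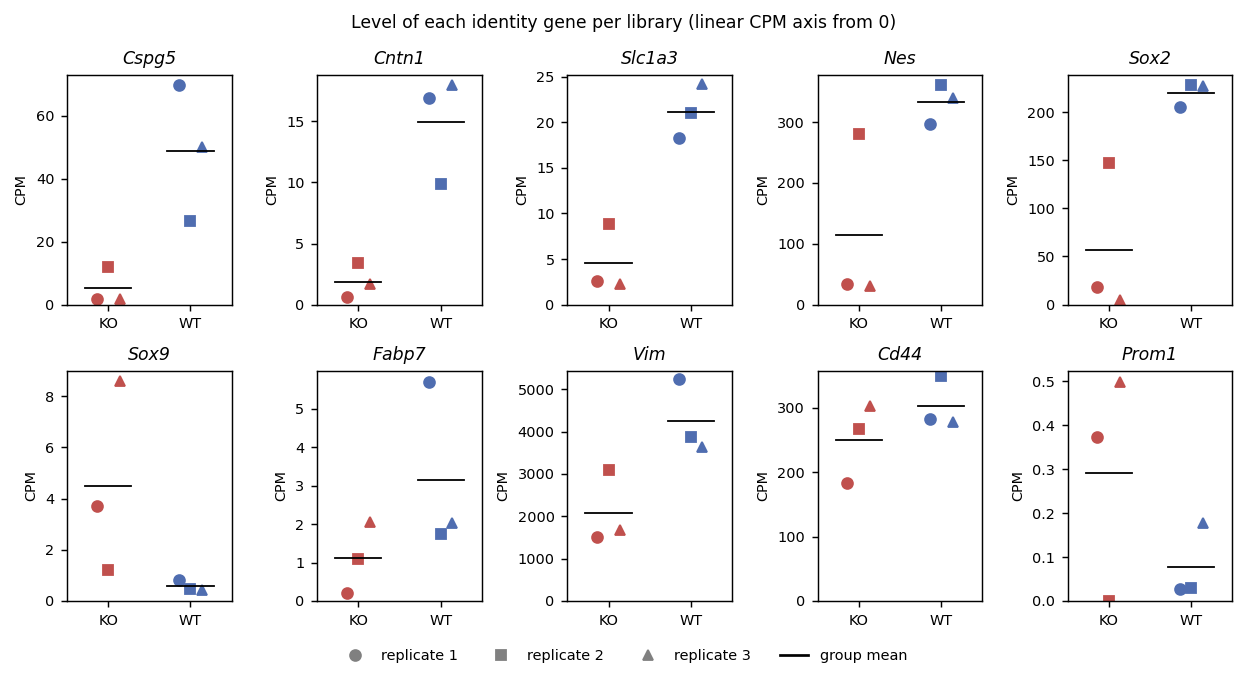
CPM of each gene on a linear axis from 0, with KO libraries in red and WT libraries in blue, 1 marker shape per replicate and a black line at the group mean. For Nes and Sox2 the square of KO replicate 2 lies near WT, at 280.5 and 147 CPM, and for Cspg5, Cntn1 and Slc1a3 it lies nearer the other KO libraries.

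Both genes that are widely expressed outside the neural lineage differed least. Vim had 1514, 3089 and 1665 CPM in KO replicates 1, 2 and 3, against 5246, 3862 and 3641 CPM in WT replicates 1, 2 and 3. KO replicate 2 was the nearest KO library to WT, and the log2 fold change was -1.02 (SE 0.46). Cd44 had 182, 267 and 302 CPM in KO replicates 1, 2 and 3, against 282, 349 and 277 CPM in WT replicates 1, 2 and 3. The groups overlapped, and the log2 fold change was -0.27 (SE 0.31). Cd44 was the only tested member whose KO replicate 3 stood at the WT mean, with 99.9% of it.

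KO replicate 2 kept unequal shares of the WT mean CPM. It held 84.3% for Nes, 72.7% for Vim, 67.0% for Sox2 and 88.1% for Cd44, against 41.6% for Slc1a3, 34.3% for Fabp7, 24.8% for Cspg5 and 22.7% for Cntn1. KO replicates 1 and 3 held 12.2% and 10.8% for Slc1a3 and 3.70% and 3.38% for Cspg5. Dividing by Nes counts within each library removed the library scaling. Cspg5 then had 5.42, 4.32 and 5.46 counts per 100 Nes counts in KO replicates 1, 2 and 3, against 23.5, 7.31 and 14.7 in WT replicates 1, 2 and 3, without overlap. Slc1a3 had 7.77, 3.14 and 7.62 per 100 Nes counts in KO replicates 1, 2 and 3, against 6.17, 5.82 and 7.11 in WT replicates 1, 2 and 3, so that its groups overlapped. Sox2 had 55.8, 52.6 and 15.7 per 100 Nes counts in KO replicates 1, 2 and 3, against 69.3, 63.0 and 66.8 in WT replicates 1, 2 and 3. The Sox2 groups did not overlap, and KO replicate 3 was lowest. Cntn1 had 1.84, 1.21 and 5.46 per 100 Nes counts in KO replicates 1, 2 and 3, against 5.70, 2.73 and 5.29 in WT replicates 1, 2 and 3, and its groups overlapped.

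Without KO replicate 2 the log2 fold changes of the surface and transport genes were -4.83 (SE 0.51) for Cspg5, -3.77 (SE 0.57) for Cntn1 and -3.13 (SE 0.32) for Slc1a3. Those of the other members were 3.38 (SE 0.58) for Sox9, -1.54 (SE 1.01) for Fabp7, -1.44 (SE 0.41) for Vim and -0.34 (SE 0.32) for Cd44. Prom1 passed the filter in that fit, with at most 11 counts in any library, and had 2.42 (SE 1.06).

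**Figure D3:**
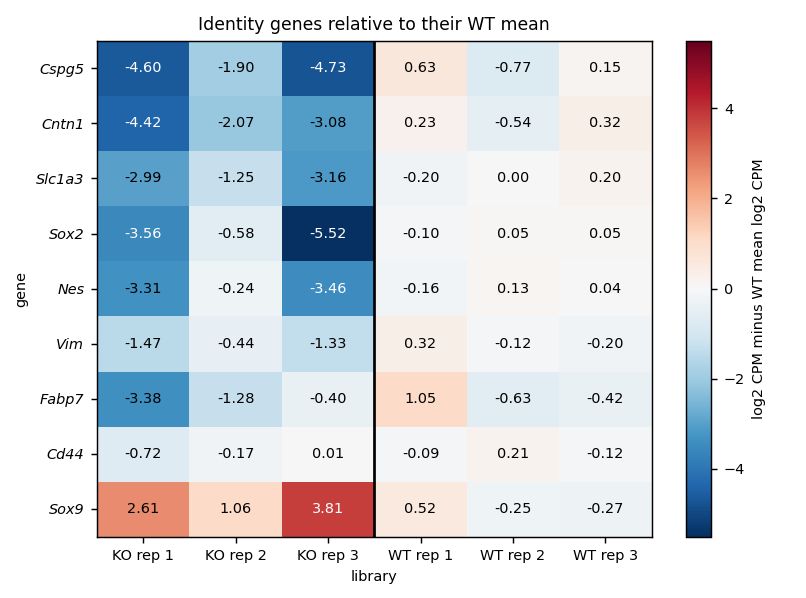
Log2 CPM of the 9 tested genes (rows) in each library (columns) minus the gene's WT mean, blue for lower and red for higher, with the value printed in each cell. KO replicate 2 stands at -0.24 for Nes and -1.90 for Cspg5, and Sox9 is above 1 in each KO library.

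Promoter sequence is shown for Sox2, Nes, Slc1a3 and Cntn1, stem or neural members whose levels were lower in each KO library and for which RefSeq gives a window (GRCm38.p6, the build of the counts). Each is the 250 bases before the most upstream RefSeq start with a window, on the gene's strand, 5′ to 3′. Capitals mark the SOX cores ACAAT and ACAAAG and the box CCAAT on either strand.
Sox2, chr3:34649745-34649994, plus strand: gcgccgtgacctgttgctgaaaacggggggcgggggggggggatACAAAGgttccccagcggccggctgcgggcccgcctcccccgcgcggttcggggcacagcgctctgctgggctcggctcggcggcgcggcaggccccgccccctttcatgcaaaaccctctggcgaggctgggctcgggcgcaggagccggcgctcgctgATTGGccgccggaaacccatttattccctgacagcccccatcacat
Nes, chr3:87970843-87971092, plus strand: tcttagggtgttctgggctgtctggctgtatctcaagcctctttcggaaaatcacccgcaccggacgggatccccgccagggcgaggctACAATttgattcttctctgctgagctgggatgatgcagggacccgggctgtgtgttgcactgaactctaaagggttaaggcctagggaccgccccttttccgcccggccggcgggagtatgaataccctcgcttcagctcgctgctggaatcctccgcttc
Slc1a3, chr15:8710808-8711057, minus strand: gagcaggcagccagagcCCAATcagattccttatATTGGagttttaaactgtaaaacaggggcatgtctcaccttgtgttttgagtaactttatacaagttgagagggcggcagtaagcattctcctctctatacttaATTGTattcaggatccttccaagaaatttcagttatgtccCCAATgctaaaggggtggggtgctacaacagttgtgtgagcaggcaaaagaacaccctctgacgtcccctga
Cntn1, chr15:92050915-92051164, plus strand: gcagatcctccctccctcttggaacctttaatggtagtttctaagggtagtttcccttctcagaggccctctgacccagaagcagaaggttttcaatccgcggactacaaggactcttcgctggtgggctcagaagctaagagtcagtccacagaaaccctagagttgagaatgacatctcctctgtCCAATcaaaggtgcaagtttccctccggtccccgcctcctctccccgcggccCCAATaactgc

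RefSeq windows of 300 bases, 250 before and 50 after the start, were searched for 8 of the 10 members. Only the most upstream window of each was counted. Cntn1 also held ACAAT in its windows 2 and 3, which lie further downstream. ACAAT occurred in 3 of the 8 windows (Slc1a3, Nes and Fabp7), against 31.0% of 32851 windows of all genes, and ACAAAG in 1 (Sox2), against 18.7%. CCAAT occurred in 6 of the 8, against 37.4%, the E box CANNTG in 4, against 72.3%, and the Sp1 box GGGCGG in 5, against 35.7%. TGGGAA, bound by RBPJ, occurred in 3, against 25.6%, TATAAA in 2, against 13.6%, and the AP-1 letters TGANTCA in 1 (Prom1), against 7.81%. Matches may share bases, and a match is a description of the letters only.

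The genes with the pattern most like each member were found by the root mean square (RMS) difference between log2 CPM profiles over the 6 libraries, each relative to its own WT mean, among 12663 genes. Sox2 was nearest to Sox10 (RMS 0.109), the transcription factor of the oligodendrocyte and Schwann cell lineages, followed by Kcna6 (0.116), a potassium channel, and Myo5b (0.158). Nes was nearest to Eps8 (0.0714), an actin regulator, then Tmem169 (0.0970) and Tmem88b (0.129). Slc1a3 was nearest to Acsl3 (0.0867), which activates fatty acids, then Nebl (0.140) and Lrrc8b (0.193), a subunit of volume-regulated anion channels. Cntn1 was nearest to Pllp (0.495), the myelin protein plasmolipin, then S100b (0.561), a glial calcium-binding protein, and Arfgef3 (0.576). Cspg5 was nearest to Rhox2h (0.440), Pcsk1n (0.460) and Rhox2g (0.513), and Fabp7 to Btbd17 (0.343), Fam181b (0.474) and Macrod2 (0.523); Rhox2h and Rhox2g are near-identical copies, whose counts are uncertain.

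Sox9 was nearest to Lrg1 (RMS 0.0551), Phyhd1 (0.0646) and Clec7a (0.0691), the last encoding dectin-1, a receptor of myeloid cells. Vim was nearest to Psmd12 (0.0532), a proteasome subunit, then Zwint (0.0574), a kinetochore protein, and Nip7 (0.0596), a ribosome biogenesis factor. Cd44 was nearest to AU041133 (0.0453), Abcg2 (0.0760) and Rbm45 (0.0913). Among the members themselves the closest pair was Slc1a3 with Nes (0.457), followed by Vim with Cd44 (0.673), Cspg5 with Cntn1 (0.707), Cntn1 with Slc1a3 (0.732) and Nes with Sox2 (0.859).

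Wider gene lists were compared next. For every list below, the shares of all genes that edgeR called were 11.2% higher and 0.226% lower. Without KO replicate 2 these shares were 22.7% and 18.5%. With all libraries they were 17.9% and 6.83% with DESeq2, and 5.31% and 0.166% with limma-voom. At an unadjusted p under 0.05 stood 5919 of the 18621 genes tested with edgeR, both directions together. List counts near any of these shares are not read as a result about the list. Levels per length in WT varied widely within the lists. Of the oligodendrocyte lineage genes, the transcription factors Olig1, Sox10 and Olig2 were at 801, 682 and 168 TPM, while Mog, a myelin glycoprotein, was at 9.62 TPM, Pdgfra at 9.49 TPM, Mag at 0.932 TPM and Mobp at 0. Of the astrocyte genes, Id3 was at 277 TPM, S100b at 91.0 TPM and Glul at 51.3 TPM, while Gfap, the classical astrocyte filament, was at 6.36 TPM and Aqp4, the astrocyte water channel, at 0.0119 TPM. Of the 17 oligodendrocyte lineage genes tested, Cspg5 included, 2 rose and 1 fell in KO, and the median log2 fold change was -1.58, beside -0.05 for all genes tested. Without KO replicate 2, edgeR called 13 of these 17 lower and 4 higher. Sox10 had 56.3, 473 and 17.5 CPM in KO replicates 1, 2 and 3, against 662, 666 and 755 CPM in WT replicates 1, 2 and 3, and with all libraries did not pass (log2 fold change -1.93, SE 1.03, edgeR adjusted p = 0.222). The 2 that rose were Pdgfra, the growth factor receptor of oligodendrocyte progenitors and of fibroblasts (log2 fold change 2.37, SE 0.57, edgeR adjusted p = 0.0380), and Mag, myelin-associated glycoprotein (2.46, SE 0.57, adjusted p = 0.0340). Cnp, a myelin enzyme (-0.89, SE 0.35, edgeR adjusted p = 0.134), and Enpp6 (2.76, SE 1.00, adjusted p = 0.110) did not pass.

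The neural stem list, with 16 of 22 genes tested, had 2 genes higher, Sox9 and Dll1, a Notch ligand (log2 fold change 1.64, SE 0.43, edgeR adjusted p = 0.0487), and a median log2 fold change of -0.92. No stem gene was past the threshold as lower with edgeR or limma-voom, against 3 with DESeq2, and 2 were lower at an unadjusted p under 0.05. Without KO replicate 2 edgeR called 9 lower and 3 higher, of 17 stem genes tested in that fit. Ptprz1, a receptor phosphatase of radial glia, was at 4.05, 41.6 and 2.34 CPM in KO replicates 1, 2 and 3, against 73.6, 73.0 and 82.9 CPM in WT replicates 1, 2 and 3 (log2 fold change -2.25, SE 0.97, edgeR adjusted p = 0.155). Tnc, the matrix protein tenascin-C, had a log2 fold change of 1.28 (SE 0.43, edgeR adjusted p = 0.0943), Hopx of 1.48 (SE 0.57, adjusted p = 0.127) and Msi2, an RNA-binding protein of stem cells, of -0.82 (SE 0.28, adjusted p = 0.0957). Sox1 and Nr2e1 had 0 counts in each library.

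Astrocyte genes moved in both directions. Of 15 tested, 3 rose, Sox9, Glul and Slc4a4, and 2 fell, Slc1a3 and Aldoc, with a median log2 fold change of -0.10. With KO replicate 2 left out, edgeR called 6 higher and 6 lower, of 16 tested in that fit. Aldoc, the brain aldolase, was at 8.37, 11.8 and 10.6 CPM in KO replicates 1, 2 and 3, against 32.6, 30.2 and 31.2 CPM in WT replicates 1, 2 and 3. Its KO libraries lay close together, KO replicate 2 with the rest (log2 fold change -1.61, SE 0.27, edgeR adjusted p = 0.0246). Glul, glutamine synthetase, was at 399, 135 and 737 CPM in KO replicates 1, 2 and 3, against 63.2, 67.4 and 64.1 CPM in WT replicates 1, 2 and 3 (2.71, SE 0.58, edgeR adjusted p = 0.0291). Slc4a4, a bicarbonate transporter, was near 0 in WT, with 3.57, 0.484 and 1.79 CPM in KO replicates 1, 2 and 3, against 0.137, 0 and 0.0893 CPM in WT replicates 1, 2 and 3 (edgeR adjusted p = 0.0419). Ndrg2 (log2 fold change 1.82, SE 0.61, edgeR adjusted p = 0.0935) did not pass. Ntsr2 and Mlc1 had 0 counts in each library. Gfap was at 1.12, 6.86 and 0 CPM in KO replicates 1, 2 and 3, against 7.16, 9.34 and 9.79 CPM in WT replicates 1, 2 and 3 (-1.70, SE 1.23, edgeR adjusted p = 0.351).

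Of 11 neural adhesion genes tested, Cntn1 fell and Nfasc, neurofascin, rose (log2 fold change 2.91, SE 0.74, edgeR adjusted p = 0.0446), with a median log2 fold change of -1.35. edgeR called 2 adhesion genes higher and 7 lower without KO replicate 2. Nrxn2, a neurexin (2.39, SE 0.72, edgeR adjusted p = 0.0708), and Nlgn2, a neuroligin (0.85, SE 0.33, adjusted p = 0.130), did not pass. Of 9 neuronal genes tested, 0 were past the threshold with edgeR or limma-voom and 1 was higher with DESeq2, while 1 was higher and 0 lower at an unadjusted p under 0.05. Of 10 neuronal genes tested without KO replicate 2, edgeR called 3 higher and 3 lower. Levels in this list differed widely: Map2, a microtubule protein, was at 3.24 to 56.8 CPM in KO, against 69.6 to 109 CPM in WT, and Tubb3, a tubulin, at 3.19 to 50.7 CPM in KO, against 58.1 to 70.0 CPM in WT. Dcx, Snap25 and Elavl4 had at most 0.109 CPM in any library. Stmn2, a tubulin-binding protein (log2 fold change 2.79, SE 0.93, edgeR adjusted p = 0.0935), Slc17a7, a vesicular glutamate transporter (-2.14, SE 0.93, adjusted p = 0.160), Syt1, synaptotagmin (-1.73, SE 0.83, adjusted p = 0.189), and Eno2, neuronal enolase (0.67, SE 0.32, adjusted p = 0.189), did not pass. Of 21 mesenchymal glioma genes tested, Vim and Cd44 among them, 0 were past the threshold with edgeR or limma-voom, DESeq2 called 3 higher and 2 lower, and 5 were higher and 2 lower at an unadjusted p under 0.05; the median log2 fold change was 0.06. In the fit without KO replicate 2, 4 mesenchymal genes were called higher and 2 lower. In that list Runx1, a transcription factor (0.95, SE 0.26, edgeR adjusted p = 0.0556), Itga5, a fibronectin receptor subunit (0.83, SE 0.24, adjusted p = 0.0628), and Met, the hepatocyte growth factor receptor (-0.95, SE 0.38, adjusted p = 0.132), did not pass.

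**Figure D4:**
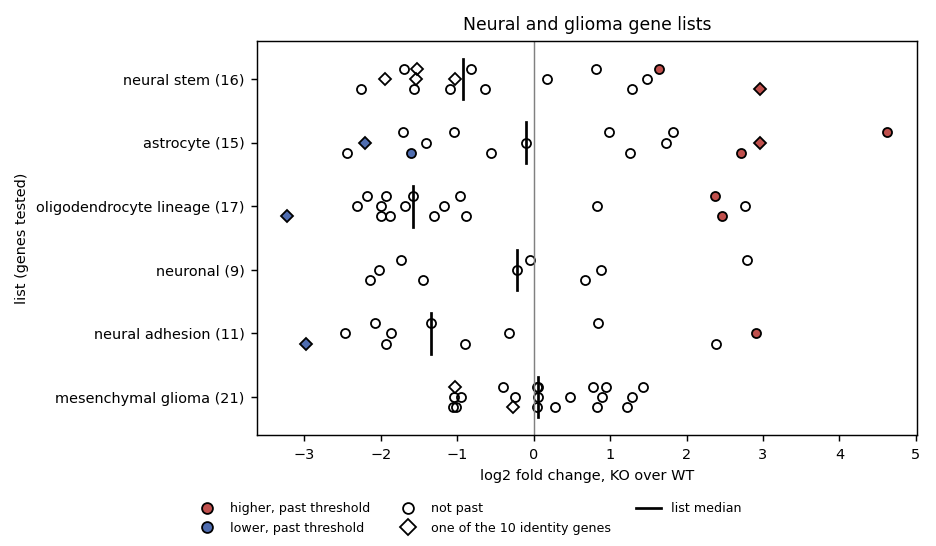
Log2 fold change of KO over WT (edgeR) for each tested gene of 6 lists, with red for genes past the threshold as higher, blue for lower and open symbols for the rest, diamonds for the 10 identity genes and a black bar at the list median. The oligodendrocyte lineage and neural adhesion medians lie at -1.58 and -1.35, and the mesenchymal glioma median at 0.06.

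Within the gene families of the members, relatives differed in direction for some families only. SOX genes had 6 log2 fold changes above 0 and 7 below, and FABP genes 3 and 1. Intermediate filament genes had 1 above 0 and 6 below, and SLC1 genes 0 above and 4 below. Of 13 SOX genes tested, 5 rose, Sox9 with Sox7, Sox13, Sox17 and Sox18, and 0 fell with edgeR, DESeq2, limma-voom or at an unadjusted p under 0.05. edgeR called 5 SOX genes higher and 4 lower without KO replicate 2. Sox17 and Sox18, factors of endothelial cells, had log2 fold changes of 3.61 (SE 0.66, edgeR adjusted p = 0.0246) and 3.29 (SE 0.62, adjusted p = 0.0249), Sox7, also of vessels, of 3.48 (SE 0.70, adjusted p = 0.0262) and Sox13 of 2.33 (SE 0.54, adjusted p = 0.0349). Fabp3 and Fabp4, the heart and fat cell relatives of Fabp7, rose with log2 fold changes of 3.09 (SE 0.73, edgeR adjusted p = 0.0359) and 4.49 (SE 1.14, adjusted p = 0.0436), and Fabp5 (1.36, SE 0.63, adjusted p = 0.180) did not pass. Among intermediate filaments Des, the muscle filament desmin, rose (2.25, SE 0.56, edgeR adjusted p = 0.0422), and Prph, peripherin (-2.18, SE 0.98, adjusted p = 0.169), and Sync, syncoilin (-0.14, SE 0.52, adjusted p = 0.867), did not pass. Spp1, osteopontin, which binds CD44, rose (3.15, SE 0.80, edgeR adjusted p = 0.0435), and Vcan, the proteoglycan versican (0.96, SE 0.32, adjusted p = 0.0930), did not pass. Of 13 genes tested in their list of proteoglycans and CD44 ligands, edgeR called 1 higher, Spp1, and 1 lower, Cspg5. Most of that list ran the other way from Spp1 and Vcan, with 10 log2 fold changes below 0, 3 above and a median of -1.45. Without KO replicate 2 edgeR called 1 intermediate filament gene higher and 4 lower, and 3 FABP genes higher and 0 lower. Of 5 SLC1 genes tested in that fit, 0 were called higher and 3 lower. Of the proteoglycan and CD44 ligand list, 2 genes were called higher and 7 lower. Each of the 15 non-member genes named from these lists as past the threshold missed it when KO replicate 1 or any of the WT libraries was left out, where edgeR called 0 of all genes, and 11 missed it without KO replicate 3. With all libraries, 10 of the 15 missed it with limma-voom and 0 with DESeq2. Limma-voom called 0 genes higher in the FABP, intermediate filament, and proteoglycan and CD44 ligand lists. In the fits without KO replicate 1 and without WT replicates 1, 2 and 3, 3461, 4931, 4282 and 4246 genes had an unadjusted p under 0.05.

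Summed markers of fibroblasts, immune, vessel, muscle and fat cells were above WT in each KO library. The tested members other than Sox9 instead had log2 fold changes below 0. The summed level of 12 fibroblast markers was 42425, 14044 and 29038 CPM in KO replicates 1, 2 and 3, against 2806, 3406 and 4327 CPM in WT replicates 1, 2 and 3, and 11 of the 12 rose. Of 12 macrophage, 12 T cell and 12 endothelial markers, 9, 11 and 11 rose, and their sums were 3437 to 14013, 265 to 844 and 500.4 to 1479 CPM in KO, against 1530 to 2431, 89.8 to 156 and 131 to 159 CPM in WT. Of 10 tested skeletal muscle markers 8 rose, and of 10 adipocyte markers 3 rose, with sums of 407 to 2408 and 91.5 to 1691 CPM in KO, against 120 to 248 and 20.3 to 47.2 CPM in WT. Of all genes, edgeR called 11.2% higher. Limma-voom called 9 fibroblast, 6 macrophage, 7 T cell, 9 endothelial, 3 skeletal muscle and 0 adipocyte markers higher (5.31% of all genes). With DESeq2 these counts were 12, 12, 12, 12, 10 and 6 (17.9% of all genes). All 12 markers of each of the fibroblast, macrophage, T cell and endothelial lists, 10 skeletal muscle and 5 adipocyte markers were called higher by edgeR without KO replicate 2. In that fit 22.7% of all genes were called higher, and without KO replicate 1 or any 1 WT library 0 were. Each sum was lowest in KO replicate 2 among the KO libraries, as Sox9 was. The macrophage, endothelial, skeletal muscle and adipocyte sums were highest in KO replicate 3, as Sox9 was, and the fibroblast and T cell sums in KO replicate 1, where the T cell sum was 844 CPM, against 702 CPM in KO replicate 3. The part of these cells in the levels of the members was not tested.

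Markers shared with peripheral glia and pigment cells were examined because the tumours grew under the skin. Of 12 Schwann cell markers 1 rose and 0 fell with edgeR, DESeq2 called 2 higher and 2 lower, limma-voom 1 and 0, and 4 were higher and 3 lower at an unadjusted p under 0.05. edgeR called 4 Schwann cell markers higher and 7 lower without KO replicate 2. Their sum was 241 to 989 CPM in KO, against 1195 to 1485 CPM in WT, of which Sox10 was 662 to 755 CPM in WT. The pigment genes Tyr and Tyrp1 had 0 counts in each library, and of 5 tested melanocyte markers 2 rose. The keratinocyte sum was 17.1 to 26.3 CPM in KO, against 22.4 to 42.2 CPM in WT, Krt15 had 0 counts in each library, and 1 of 6 tested markers rose. With KO replicate 2 left out, edgeR called 2 melanocyte markers higher and 2 lower. Of 7 keratinocyte markers tested in that fit, it called 2 higher and 3 lower.

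Proliferation genes were lower beside Nes and Sox2 in the same libraries. The summed level of 12 such genes was 556, 1467 and 393 CPM in KO replicates 1, 2 and 3, against 2320, 1939 and 2087 CPM in WT replicates 1, 2 and 3. With edgeR and limma-voom 0 of the 12 were past the threshold, DESeq2 called 8 lower (6.83% of all genes were), and 8 were lower at an unadjusted p under 0.05. Without KO replicate 2 edgeR called 12 of the 12 lower, where 18.5% of all genes were.

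**Figure D5:**
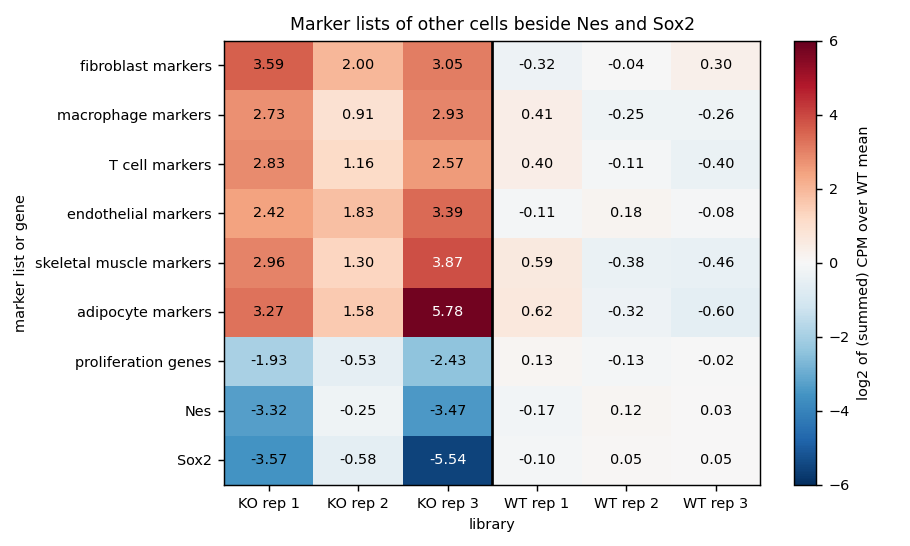
Log2 of the summed CPM of 7 gene lists, and of the CPM of Nes and Sox2, relative to the WT mean, per library, with red for higher and blue for lower and the value printed in each cell. Fibroblast markers stand at 3.59 and 3.05 in KO replicates 1 and 3, and Nes at -3.32 and -3.47.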

How the data were processed

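RNA was measured in 3 KO and 3 WT libraries, numbered in accession order within each genotype. The authors deposited raw read counts per gene with exon positions and merged exon lengths, per the file headers. Per the submitters' processing notes the build was mm10 and DESeq2 was used; for the aligner, annotation, strand setting and multiple alignments, the entry is: not given in the sources used here. Smart-seq2 does not mark strand; only Prom1 shared exon bases with another GENCODE M21 gene, Gm16401, which had 0 counts.

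KO was compared with WT in edgeR 4.0.16 (R 4.3.3) by its quasi-likelihood test (TMM, filterByExpr defaults, 18621 genes, Benjamini-Hochberg adjusted p of 0.05). The fit was tested on simulated counts with changes balanced in both directions and no library that stood apart, a setting that these data do not match. SE is the absolute log2 fold change over the square root of F. Log2 CPM used a prior count of 2. TPM used the deposited lengths over all 55291 genes. The limit for a count of 0 is 3 counts. Alternatives were RLE or no composition scaling, no or a stricter filter (minimum count 50), DESeq2 1.42.0, limma-voom (limma 3.58.1), and each library left out. Whether libraries came from separate animals is not in the labels, so the p-values reflect only how far these samples differed, possibly for technical reasons.

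Members and lists were chosen with earlier results of these data known. Genes named were the members, up to 4 other genes per list with the smallest p, list genes at 0, and the 3 nearest in pattern to each tested member (average log2 CPM at least 1, predicted symbols left out); Olig1, Olig2 and the choice among genes at or near 0 were chosen after their values were seen.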

Additional observations from a re-analysis of the deposited data

How the results depend on the processing

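Each tested member kept its direction in every alternative run (12 each, 11 for Sox9, which the stricter filter removed), with log2 fold changes from -4.83 to -2.84 for Cspg5, -3.77 to -2.60 for Cntn1, -3.13 to -1.92 for Slc1a3, -3.41 to -1.11 for Nes, -4.24 to -1.43 for Sox2, 2.06 to 3.38 for Sox9, -2.31 to -0.79 for Fabp7, -1.44 to -0.86 for Vim and -0.45 to -0.14 for Cd44. No paired analysis was possible because the replicate numbers come from accession order. Over all genes the counts were 2083 higher and 42 lower. They were 3266 and 1244 with DESeq2 and 988 and 31 with limma-voom, and 24 were lower without composition scaling and 476 with no filter. Leaving out 1 library gave 0 to 4449 higher and 0 to 3629 lower. Without composition scaling the median of all genes was -0.18, beside -0.05 in the reported fit.

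The number of all genes called also differed between these runs, and the counts below are not read beyond it. RLE called 1799 of 18621 genes higher and 57 lower, and no composition scaling 1711 and 24. No filter called 2880 and 476 of 33054, and the stricter filter 2041 and 40 of 14810. Members called higher were 0 with RLE and limma-voom, and 0 with the stricter filter, where Sox9 was not tested. Members called lower were 1 without composition scaling. Leaving out 1 library gave 0 to 1 members higher and 0 to 6 lower. Stem genes called higher were 0 with RLE and limma-voom, 1 with no composition scaling and 1 with the stricter filter, where Sox9 was not tested. Those called lower were 1 with no filter and 3 with DESeq2. Leaving out 1 library gave 0 to 3 stem genes higher and 0 to 9 lower. Astrocyte genes called higher were 5 with no filter and DESeq2 and 1 with the stricter filter and limma-voom, and lower 1 without composition scaling; leaving out 1 library gave 0 to 6 for both. Oligodendrocyte lineage genes called higher were 1 without composition scaling and 0 with limma-voom, and lower 0, 2 and 3 without composition scaling, with no filter and with DESeq2; leaving out 1 library gave 0 to 4 and 0 to 13. Adhesion genes called higher were 0 with RLE, no composition scaling, the stricter filter and limma-voom and 2 with DESeq2; leaving out 1 library gave 0 to 2 and 0 to 7. Neuronal genes called higher were 1 with DESeq2; leaving out 1 library gave 0 to 3 for both. Mesenchymal glioma genes called higher were 2 with the stricter filter and 3 with DESeq2, and lower 2 with DESeq2; leaving out 1 library gave 0 to 4 and 0 to 2. Leaving out 1 library gave log2 fold changes of -0.20 to 0.028 for Slc1a5, above 0 without KO replicate 3, and -0.36 to 0.12 for Sync, above 0 without WT replicate 3. Other than the removal of Sox9 by the stricter filter, the cause of these changes was not tested. At this depth a count of 0 allows up to 3 counts, which is 0.0820 to 0.150 CPM, for counting error only.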
